A study of Mus musculus with 19 samples.

Results

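Replication-dependent core histone genes and the linker histone genes were examined in bulk RNA-seq of mouse bone marrow monocytes. Members were the protein-coding rows of the deposited gene table whose symbol was H1f, H2ac, H2bc, H3c or H4c followed by a number, which gave 69 of 33559 rows. They comprised 9 linker H1 genes, 18 H2A genes, 18 H2B genes, 11 H3 genes and 13 H4 genes. The libraries compared were 3 of wild-type (WT) bone marrow monocytes labelled with GCSF treatment (granulocyte colony-stimulating factor, G-CSF, a cytokine that drives granulocyte production) and 2 of WT bone marrow monocytes with no treatment, called controls here. All 5 shared genotype, tissue and cell type. The labels gave neither dose, route, duration, age nor strain, did not say how the monocytes were isolated, and did not say whether the libraries of a group came from separate animals, so the p-values measure only the spread between these libraries. The other 14 samples of the series were single-cell libraries of skin and were not analysed here.

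Core histones H2A, H2B, H3 and H4 form the protein spool around which DNA is wound, and H1 binds the linker DNA between spools. The replication-dependent genes lie in clusters of many near-identical copies and are transcribed mainly in S phase, when new DNA must be packaged. Their messages carry no poly(A) tail. They end in a short stem-loop that is bound by the stem-loop binding protein Slbp and is cut with help of the U7 small nuclear RNA, so how strongly they appear in RNA-seq depends on whether a library captures RNA without a tail. How RNA was selected for these bulk libraries is not given in the sources used here. H1f0 and H1f10 are linker genes outside the clusters whose expression does not depend on S phase.

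The 3′ stem-loops are shown because this element sets the histone messages apart from other mRNA. A stem-loop was found 22 to 59 bases after the stop codon in 40 of the 63 members whose transcript could be matched to GENCODE M21, and 15 of the 63 matched models had too few bases after the stop codon to hold one. The most common of them was carried by 21 genes, which were 3 of H1, 8 of H2A, 6 of H2B and 4 of H3. Another form was carried by 6 genes of H1, H2B and H3. The H4 genes had forms of their own, of which the most common was found in 6 genes and 2 others in 2 genes each. Capitals mark the bases that differ from the most common form.
Most common form, as in H2ac4, H2bc11, H3c2 and H1f2: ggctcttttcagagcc
H2bc12, H2bc3, H3c3, H3c6, H3c7 and H1f6: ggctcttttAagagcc
H4c3, H4c4, H4c6, H4c8, H4c17 and H4c18: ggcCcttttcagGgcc
H4c2 and H4c11: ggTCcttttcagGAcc
H4c9 and H4c14: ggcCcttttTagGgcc

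The promoters also differed by class. Sequences of 60 members, running 250 bases upstream to 50 bases downstream of the start, were taken from RefSeq (GRCm38.p6) and searched on both strands. The CCAAT box, written CCAAT, was present in 17 of 17 H2A, 14 of 14 H2B, 9 of 9 H3 and 7 of 9 H1 promoters, but in 3 of 11 H4 promoters. It was present in 37.4% of all 32851 promoters in the table. The octamer ATTTGCAT, the element bound by Oct-1 in H2B promoters, was found in 7 of 14 H2B and 6 of 17 H2A promoters and in none of the 9 H1, 9 H3 and 11 H4 promoters, against 1.74% of all promoters. Windows of neighbouring H2A and H2B genes can overlap, so these 2 counts are not separate. The octamers of H2ac1, H2ac8 and H2ac12 are the same bases as those of H2bc1, H2bc8 and H2bc12. The H1 element AAACACA was found in 5 of 9 H1 promoters, 2 of 17 H2A, 2 of 14 H2B and no H3 or H4 promoter, against 7.18% of all. The TATA motif TATAAA was found in 4 of 9 H1, 11 of 17 H2A, 7 of 14 H2B, 4 of 9 H3 and 8 of 11 H4 promoters, against 13.6% of all. In H2bc7, H2bc12, H2bc15 and H2bc22 the only match was TTTATA, the motif on the other strand. Those bases are the TATAAA of H2ac7, H2ac12, H2ac15 and H2ac22, and H2ac8 likewise held only the match of H2bc8. These matches are letters in a window and were not tested for binding.

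In 11 places an H2A gene and an H2B gene stood back to back, transcribed away from each other, with 163 to 280 bases between their RefSeq bounds. The promoter of H2bc12 is shown because it spans the 177 bases between H2ac12 and H2bc12, chr13:22035644-22035820, the highest H2A gene and the second highest H2B gene. Its line starts before that gap, within the RefSeq bounds of H2ac12, and the TTTATA lies in that first part. H3c10 and H4c12, the highest genes of their classes, are shown for comparison. Each line gives the 250 bases upstream of the start on the gene's own strand, and capitals mark the CCAAT, octamer and TATA motifs on either strand.
H2bc12, chr13:22035571-22035820, plus strand, GRCm38.p6: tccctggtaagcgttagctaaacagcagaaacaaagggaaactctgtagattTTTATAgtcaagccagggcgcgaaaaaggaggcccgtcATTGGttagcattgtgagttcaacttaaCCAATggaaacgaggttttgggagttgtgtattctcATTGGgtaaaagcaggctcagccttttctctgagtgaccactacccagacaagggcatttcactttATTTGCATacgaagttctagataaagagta
H3c10, chr13:21717378-21717627, plus strand, GRCm38.p6: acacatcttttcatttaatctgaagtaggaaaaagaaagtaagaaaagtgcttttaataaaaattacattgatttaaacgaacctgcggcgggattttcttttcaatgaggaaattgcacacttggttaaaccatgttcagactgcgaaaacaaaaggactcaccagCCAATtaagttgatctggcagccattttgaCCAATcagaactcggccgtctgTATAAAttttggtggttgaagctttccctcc
H4c12, chr13:21750554-21750803, minus strand, GRCm38.p6: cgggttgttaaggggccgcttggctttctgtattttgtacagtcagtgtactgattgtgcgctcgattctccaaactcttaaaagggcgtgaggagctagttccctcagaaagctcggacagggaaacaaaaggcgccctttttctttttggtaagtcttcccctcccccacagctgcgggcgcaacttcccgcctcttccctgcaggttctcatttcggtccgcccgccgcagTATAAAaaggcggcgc

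Of the 63 members with a RefSeq position and a matched strand, 51 lay on chromosome 13, 21 of them between 21715711 and 22043658 and 30 between 23531044 and 23934913. A further 9 lay on chromosome 3 between 96219885 and 96270192. H1f10 and H1f8 lay on chromosome 6 and H1f0 on chromosome 15.

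Levels are FPKM, reads scaled by the length of the gene model and by the library's total, as deposited. Multiplying FPKM by model length gave whole reads for 63 of 63 members with a known length, and the recovered totals over all genes with whole reads were 7116065, 7140153 and 6028702 reads in the G-CSF libraries and 6158981 and 2986022 reads in controls 1 and 2. The members held 1.19%, 1.94% and 1.33% of these reads in the G-CSF libraries and 2.18% and 1.44% in the controls. Control 2 was thus the shallowest library, and it also stood apart in several results below. The labelled cell type was checked by its markers. All 14 monocyte markers passed the filter, and their summed level was 3359 to 6101 FPKM in the G-CSF libraries against 3913 and 1639 FPKM in controls 1 and 2, with the lysozyme gene Lyz2 the highest. Of the 14, 11 had a positive fold change with G-CSF, with a median log2 fold change of 1.06 (0.89 against control 1 and 1.43 against control 2), and at an unadjusted p under 0.05 there were 9 higher and 0 lower genes. None passed the adjusted threshold. The 12 neutrophil markers summed to 4612 to 7101 FPKM in the G-CSF libraries against 11809 and 2206 FPKM in the controls. In every library except G-CSF 3 this sum was above the monocyte sum, so the check did not settle how pure the monocytes were.

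No member passed the test of G-CSF against control. The test was limma on log2(FPKM + 1) over the 16791 genes with at least 1 FPKM in at least 2 libraries, with Benjamini-Hochberg adjustment over all of them and a threshold of 0.05. Of the 69 members, 65 were tested, and 0 were called higher or lower, where the same test called 0.00596% of all genes higher and 0% lower. When only the 10524 protein-coding genes were fitted, it called 0.285% of genes higher and 0.0285% lower, and again 0 of 65 members. At an unadjusted p under 0.05, 1 member was higher and 0 were lower, or 1.54% of members higher, against 7.9% of all genes higher and 4.76% lower. H2bc18 was the single member. Adjusted p-values of the members ran from 0.383 to 0.997. In bulk libraries, fewer dividing cells and less histone RNA per cell cannot be told apart.

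The controls lay on either side of the G-CSF libraries. In 39 of the 65 tested members, or 60.0%, all 3 G-CSF values fell between the 2 control values, which was so for 25.5% of all tested genes. The G-CSF and control values did not overlap in 5 members. H2bc18 was higher in every G-CSF library than in both controls, as were 20% of all genes. H1f2, H2ac15, H2ac20 and H2ac21 were lower in every G-CSF library, 4 of 65 members or 6.15%, against 11.9% of all genes. The median log2 fold change over the tested members was -0.03, with 30 positive and 35 negative, beside a median of 0.08 over all genes tested, of which 56.3% were positive.

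**Figure D1:**
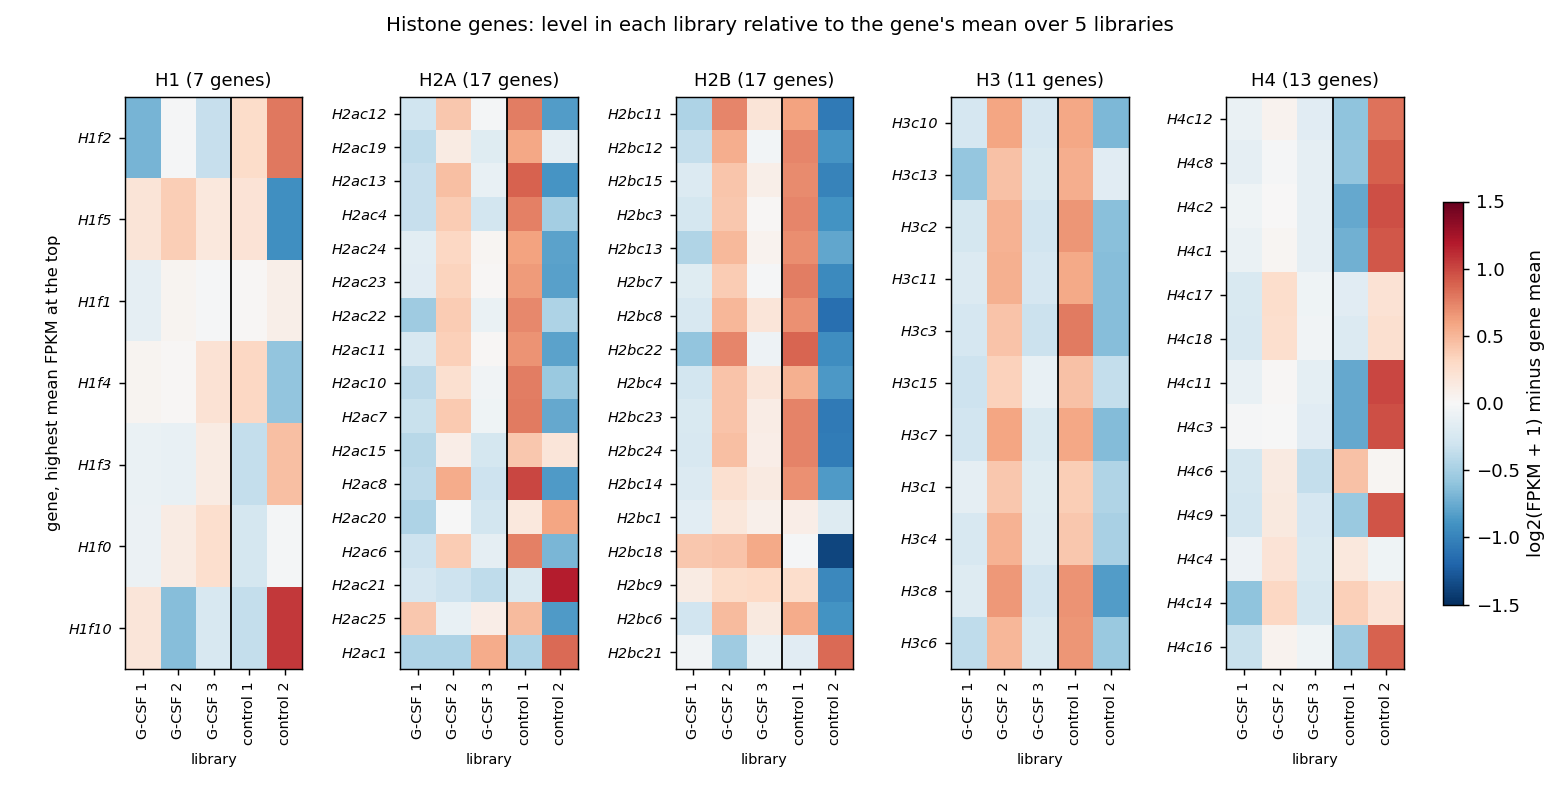
Each row is one of the 65 tested histone genes and each column a library, G-CSF left of the black line and control right of it; colour gives log2(FPKM + 1) minus the gene's mean over the 5 libraries. Most H2A, H2B and H3 rows are highest in control 1 or G-CSF 2 and lowest in control 2, whereas 8 H4 rows are highest in control 2 and lowest in control 1.

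Against each control alone, the members moved in opposite directions. Against control 1 the median log2 fold change of the 65 members was -0.54, with 49 negative. Against control 2 it was 0.52, with 43 positive. The medians over all genes were 0.05 and 0.19 in these 2 comparisons, which share the same G-CSF libraries. With control 1 alone as reference no member had an unadjusted p under 0.05, where 10.7% of all genes were higher and 7.84% lower at that level, and 0% of genes passed the adjusted threshold in either direction. With control 2 alone, 15 members (23.1%) had a positive and 12 (18.5%) a negative fold change with an unadjusted p under 0.05, against 26.7% and 18.6% of all genes. With control 2 alone H1f5, H2bc9 and H2bc18 passed the adjusted threshold as higher and H2ac21, H2bc21 and H4c16 as lower, which is 3 of 65 members each way where 16.1% of all genes were called higher and 11.9% lower. In each of these fits the lone control is assumed to vary like the G-CSF libraries.

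**Figure D2:**
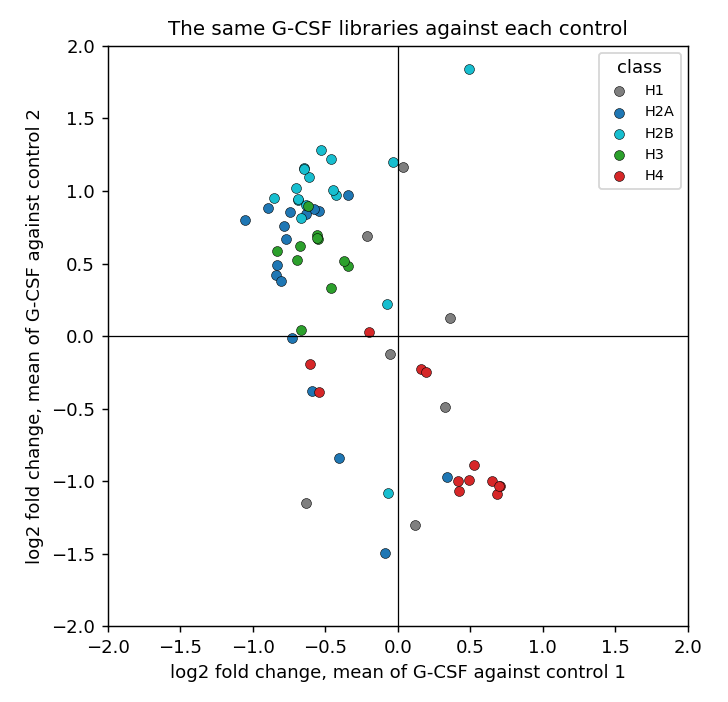
Each point is a tested histone gene, coloured by class, with the log2 fold change of the 3 G-CSF libraries against control 1 on the horizontal axis and against control 2 on the vertical axis. All 11 H3 genes lie at upper left, negative against control 1 and positive against control 2, and most H4 genes lie at lower right; because the G-CSF values enter both axes, the distance between the axes shows the difference of the controls.

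H4 genes stood opposite to the other core classes. Their summed level was 7480, 8719 and 7414 FPKM in the G-CSF libraries, against 6058 FPKM in control 1 and 13834 FPKM in control 2. The 3 G-CSF libraries lay close together, the controls were 2.28-fold apart with control 2 the higher, and the groups overlapped. The 18 H2A genes summed to 4432, 7012 and 5203 FPKM in the G-CSF libraries, against 9097 FPKM in control 1 and 3841 FPKM in control 2. The 18 H2B genes summed to 2384, 4177 and 3121 FPKM in the G-CSF libraries, against 4709 and 1523 FPKM in controls 1 and 2. Control 1 was the higher control by 2.37-fold for H2A and 3.09-fold for H2B, and in both classes the order of libraries was control 1, G-CSF 2, G-CSF 3, G-CSF 1 and control 2. The 11 H3 genes summed to 2977, 5177 and 3088 FPKM in the G-CSF libraries, against 5453 and 2527 FPKM in controls 1 and 2. The sum of the linker H1 genes varied least, at 498, 608 and 558 FPKM in the G-CSF libraries, against 650 and 663 FPKM in the controls. These sums did not overlap, but among the 7 tested H1 genes only 1, H1f2, had groups that did not overlap. The nearly equal control sums also hid opposite differences, with H1f2 higher in control 2 and H1f4 and H1f5 higher in control 1. H1f2, the highest H1 gene, averaged 170.2 ± 39.9 FPKM with G-CSF and 316 ± 80.1 FPKM in control, a wider gap than that of the summed class, at 555 ± 54.9 FPKM with G-CSF and 657 ± 9.27 FPKM in control (SD, n = 3 and n = 2). As means the class sums were 7871 ± 735 FPKM with G-CSF and 9946 ± 5498 FPKM in control for H4, and 5549 ± 1324 with G-CSF and 6469 ± 3716 in control for H2A (SD, n = 3 and n = 2), so the difference of the groups was smaller than the spread of the controls in both.

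**Figure D3:**
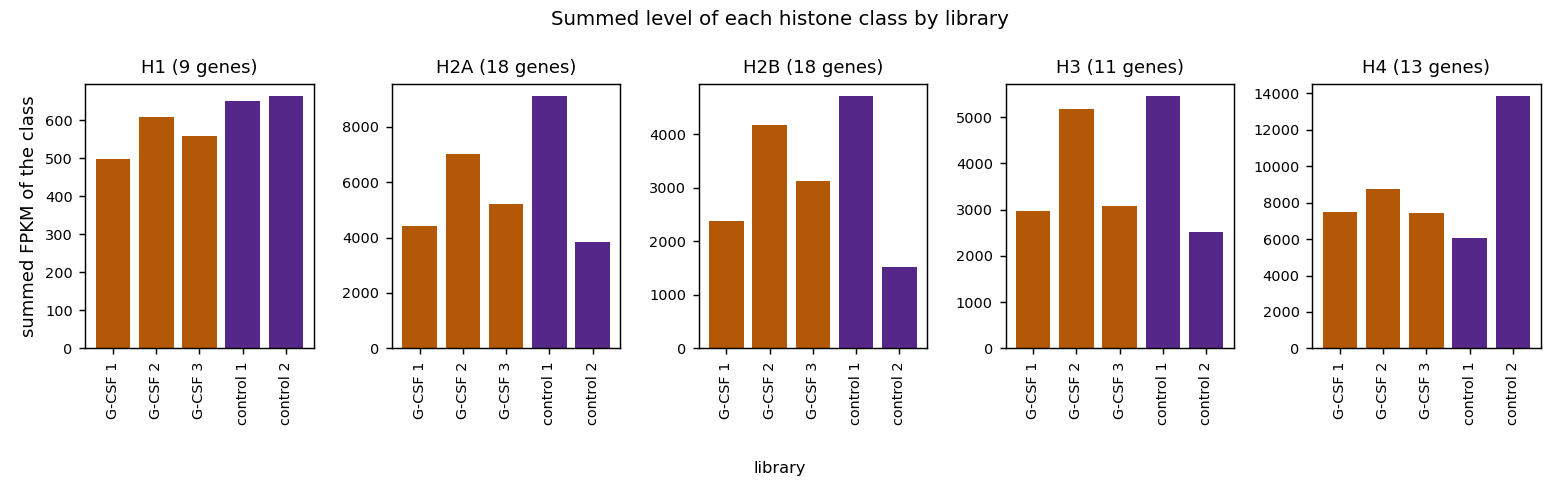
Bars give the summed FPKM of each histone class in each library, G-CSF libraries in orange and controls in purple, each panel with its own linear axis from 0. Control 1 exceeds control 2 for H2A, H2B and H3, control 2 exceeds control 1 for H4 (13834 against 6058 FPKM), and the controls are nearly equal for H1.

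The ratio of summed H4 to summed H2A does not depend on how a library was scaled. It was 1.69, 1.24 and 1.42 in the G-CSF libraries, against 0.666 in control 1 and 3.601 in control 2. On the recovered reads of the members with a known length it was 1.90, 1.39 and 1.61 in the G-CSF libraries, against 0.750 and 3.998 in controls 1 and 2. The G-CSF ratios thus lay between the controls on either measure. H3 to H2A, by contrast, was 0.672, 0.738 and 0.593 in the G-CSF libraries, against 0.599 and 0.658 in the controls. H4 made up 43.3%, 34.8% and 39.4% of the summed core histone FPKM in the G-CSF libraries, against 23.9% in control 1 and 63.7% in control 2.

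The summed level of other short RNAs without a poly(A) tail ranked the libraries as this ratio did, but most single members of the list did not. The list held spliceosomal and nucleolar small RNAs, vault and signal recognition particle RNA and the 7SK RNA Rn7sk, and 24 of its 25 members in the table were tested. Their summed level was 143238, 60335 and 121596 FPKM in the G-CSF libraries, against 33801 FPKM in control 1 and 268322 FPKM in control 2. From high to low, the order of the 5 libraries was control 2, G-CSF 1, G-CSF 3, G-CSF 2 and control 1 for this sum and for the ratio of H4 to H2A. Among the 24 tested genes this order was found in 2, Rn7sk and the spliceosomal Rnu12, while 16 were higher in control 2 than in control 1 and 7 lower, and control 2 was the lowest library in 6 and the highest in 9. The median level of the tested genes was 187, 128 and 78.2 FPKM in the G-CSF libraries, against 67.4 FPKM in control 1 and 52.4 FPKM in control 2, so by the median control 2 was lowest. A few abundant genes carried the sum. Without Rn7sk it was 43071, 40880.5 and 41571 FPKM in the G-CSF libraries, against 23471.5 and 132216 FPKM in controls 1 and 2, and without Rn7sk and the signal recognition particle genes Rn7s1 and Rn7s2 it was 17595, 12379 and 11145 FPKM in the G-CSF libraries, against 8007 and 24862 FPKM, sums that were chosen after seeing the data. Rn7sk, which holds back transcription elongation, had the highest level, at 100167, 19455 and 80025 FPKM in the G-CSF libraries, against 10330 and 136106 FPKM in controls 1 and 2. Its groups overlapped (adjusted p = 0.911, limma). Snora73a, a nucleolar guide RNA with the smallest p of the list, had 1.70, 0.502 and 1.96 FPKM in the G-CSF libraries, while both controls list it at 0 (adjusted p = 0.336). The part of such RNA in the histone values was not tested.

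**Figure D4:**
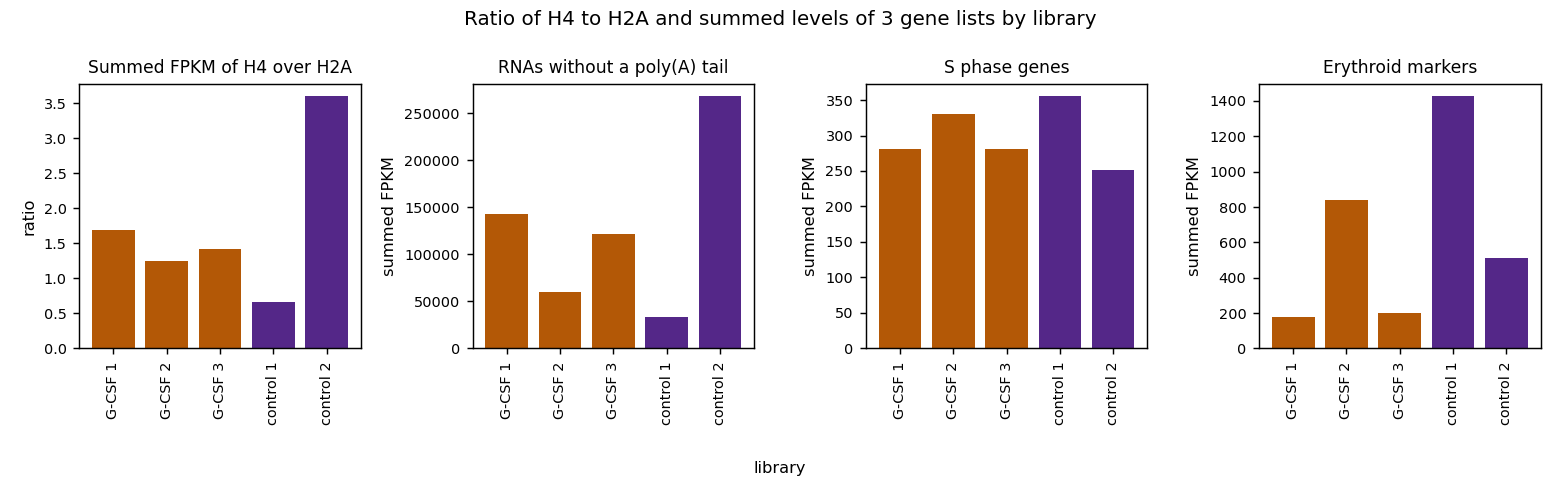
The panels give, for each library, the summed FPKM of H4 over that of H2A and the summed FPKM of RNAs without a poly(A) tail, of S phase genes and of erythroid markers; G-CSF libraries are orange, controls purple, and axes are linear from 0. The first 2 panels rank the libraries alike, with control 2 highest and control 1 lowest.

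Near-identical copies limit what can be said of single core histone genes. Among the 63 members with a matched transcript, 46 had at least 20% of their 50-base windows repeated in another member, the median share was 43.2% and H2ac19 reached 100%. Members without a matched transcript were not compared. How reads matching several genes were assigned is not given in the sources used here. H2ac18 and H2ac19 are near-identical copies, yet H2ac18 had 1 read in each G-CSF library and 0 in each control, while H2ac19 had 1908, 3074 and 1905 reads in the G-CSF libraries against 4035 and 915 in the controls. The 15 tested members that shared less than 20% of their windows were 7 H1, 2 H2A, 3 H2B and 3 H4 genes. Of these 15, 7 were higher in control 1 and 8 in control 2, with a median log2 ratio of control 2 to control 1 of 0.07, beside -1.22 over all tested members. The 3 low-sharing H4 genes were divided, with H4c3 higher in control 2 and H4c4 and H4c14 higher in control 1, and no H3 gene shared so little. The low-sharing H2A and H2B genes were divided too, with 1 of 2 and 2 of 3 higher in control 1. Summed over low-sharing members, H4 to H2A was 14.7, 10.2 and 11.8 in the G-CSF libraries, against 5.94 in control 1 and 31.6 in control 2. That is the library order of the ratio over all members, but it rests on 3 H4 and 2 H2A genes. The part of shared sequence in the opposite course of H4 and the other core classes was not tested. Strandedness of the libraries is not stated either, so overlapping antisense reads cannot be told apart. FPKM also depends on the gene model, which is 7425 bases long for H1f3 and 312 bases for H4c12.

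H4 is the class with the highest single genes. H4c12 (chr13:21750145-21750553, minus strand) had 1454, 1627 and 1390.2 FPKM in the G-CSF libraries, against 1032 FPKM in control 1 and 2749.6 FPKM in control 2. Its log2 fold change was -0.18 ± 0.63 (SE, adjusted p = 0.913, limma), and the G-CSF values lay between the controls. H4c8 had 1109, 1204 and 1109 FPKM in the G-CSF libraries, against 810 and 2268 FPKM in controls 1 and 2, and H4c2 and H4c1 were ordered in the same way. H4c2 had 1017, 1074 and 968 FPKM in the G-CSF libraries, against 624 and 2090.4 FPKM in controls 1 and 2. H4c1 had 753, 822 and 737 FPKM in the G-CSF libraries, against 491 and 1538 FPKM in controls 1 and 2.

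The 13 H4 genes did not all share this order. By the log2 ratio of control 2 to control 1, 8 genes (H4c11, H4c2, H4c3, H4c1, H4c9, H4c8, H4c16 and H4c12) lay between 1.41 and 1.77, H4c18 and H4c17 were at 0.45 and 0.39, and H4c14, H4c4 and H4c6 ran from -0.16 to -0.41. This division was made from the values and was not tested. H4c3, H4c8, H4c17, H4c18, H4c4 and H4c6 carry the same stem-loop of 16 bases and lie in different groups of this division. The part of the stem-loop in it was not tested. H4c6 had 425, 561 and 398 FPKM in the G-CSF libraries, against 694 and 521 FPKM in controls 1 and 2 (log2 fold change -0.40 ± 0.43, adjusted p = 0.697). H4c14, on chromosome 3, had 60.3, 114 and 76.7 FPKM in the G-CSF libraries, against 119 and 106 FPKM in the controls (log2 fold change -0.47 ± 0.37, adjusted p = 0.601). Only 1.01% of the windows of H4c14 are shared with another member that had a matched transcript. H4c16, a low member for which no position was matched, had 15.8, 20.9 and 19.2 FPKM in the G-CSF libraries, against 13.6 and 38.0 FPKM in the controls (log2 fold change -0.29 ± 0.45, adjusted p = 0.790). All 13 H4 genes had a negative fold change, with a median of -0.18, yet the median was 0.42 against control 1 and -0.99 against control 2.

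H2A genes were led by H2ac12 (chr13:22035122-22035643, minus strand), at 755, 1235 and 911 FPKM in the G-CSF libraries, against 1582.5 FPKM in control 1 and 522 FPKM in control 2. Its log2 fold change was 0.06 ± 0.65 (adjusted p = 0.971), and all G-CSF values lay between the controls. H2ac13 had 374, 652 and 442 FPKM in the G-CSF libraries, against 883 and 258 FPKM in controls 1 and 2. H2ac4 had 357, 591 and 376 FPKM in the G-CSF libraries, against 770 and 320 FPKM in controls 1 and 2, and H2ac19 had 420, 599 and 482 FPKM in the G-CSF libraries, against 822 and 500 FPKM. These 4 genes were highest in control 1 and next highest in G-CSF 2. Over the class, 5 of 17 tested genes had a positive and 12 a negative fold change, with a median of -0.13.

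A few H2A genes had G-CSF values that were each under both control values. H2ac21 (chr3:96219885-96220354) had 17.8, 17.1 and 16.3 FPKM in the G-CSF libraries, against 18.2 FPKM in control 1 and 50.02 FPKM in control 2. The gap to control 1 was small, and the log2 fold change of -0.79 ± 0.44 (adjusted p = 0.479) was -0.09 against control 1 and -1.498 against control 2. H2ac20 had 99.8, 138 and 114 FPKM in the G-CSF libraries, against 155 and 209 FPKM in controls 1 and 2, with a log2 fold change of -0.62 ± 0.34 (adjusted p = 0.475). H2ac15 had 215, 307 and 238 FPKM in the G-CSF libraries, against 379 and 326 FPKM in controls 1 and 2, with a log2 fold change of -0.49 ± 0.38 (adjusted p = 0.588). Of the 18 H2A genes, H2ac20, H2ac21 and H2ac1 were the 3 that were higher in control 2 than in control 1.

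Most H2B genes had the library order of the H2A genes. In 12 of 18 H2B genes and 10 of 18 H2A genes the libraries ran control 1, G-CSF 2, G-CSF 3, G-CSF 1, control 2 from high to low, and in 9 of the 11 back-to-back pairs both genes were higher in control 1 than in control 2. H2bc11 had 340.2, 782 and 538 FPKM in the G-CSF libraries, against 718 and 224 FPKM in controls 1 and 2. H2bc12, the partner of H2ac12, had 306, 573 and 381 FPKM in the G-CSF libraries, against 653 and 211 FPKM in controls 1 and 2. Its log2 ratio of control 2 to control 1 was -1.63, and that of H2ac12 was -1.60. H2bc15 had 320.3, 493 and 395 FPKM in the G-CSF libraries, against 607 and 185 FPKM in controls 1 and 2, and H2bc3 had 223, 355 and 270.2 FPKM in the G-CSF libraries, against 447 and 144 FPKM. In these 4 genes the fold change was positive and small beside its error, as in H2bc11 (log2 fold change 0.38 ± 0.67, adjusted p = 0.815). Over the class, 16 of 17 tested genes had a positive fold change, with a median of 0.24, but the median was -0.61 against control 1 and 1.01 against control 2.

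H2bc18 (chr3:96269700-96270192, plus strand) had the smallest p of all members. It had 64.7, 66.1 and 72.6 FPKM in the G-CSF libraries, against 48.0 FPKM in control 1 and 18.2 FPKM in control 2. The 3 G-CSF values lay within a narrow range above both controls, which differed from each other by more than control 1 differed from G-CSF. The log2 fold change was 1.17 ± 0.44 (SE, unadjusted p = 0.0407, adjusted p = 0.383, limma), with 0.49 against control 1 and 1.84 against control 2. None of its windows was shared with another member that had a matched transcript. H2bc9 had 41.5, 46.3 and 46.8 FPKM in the G-CSF libraries, against 45.9 and 18.9 FPKM in controls 1 and 2, so control 1 fell within the G-CSF range (log2 fold change 0.58 ± 0.42, adjusted p = 0.559). H2bc21, the one H2B gene with a negative fold change, had 3.24, 2.04 and 3.06 FPKM in the G-CSF libraries, against 2.91 and 6.94 FPKM in controls 1 and 2 (log2 fold change -0.58 ± 0.37, adjusted p = 0.525).

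H3 genes were the most uniform class, with all 11 higher in control 1 than in control 2. H3c10 (chr13:21717628-21718115, plus strand) had 434, 774 and 432 FPKM in the G-CSF libraries, against 774 and 324 FPKM in controls 1 and 2. G-CSF 2 nearly equalled control 1, and the log2 fold change was 0.07 ± 0.58 (adjusted p = 0.961). H3c2 had 401, 695 and 397 FPKM in the G-CSF libraries, against 766 and 312 FPKM in controls 1 and 2, and H3c11 had 411, 689.6 and 398 FPKM in the G-CSF libraries, against 707 and 304 FPKM. H3c13, on chromosome 3, had 343, 698 and 437 FPKM in the G-CSF libraries, against 750.5 and 458 FPKM in controls 1 and 2, and its log2 fold change of -0.31 ± 0.51 was the most negative of the class (adjusted p = 0.802). H3c3 had a log2 fold change of -0.12 ± 0.56 and H3c8 of 0.14 ± 0.58, with adjusted p-values of 0.933 and 0.928. Over the class, 6 fold changes were positive and 5 negative, with a median of 0.06.

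Linker genes behaved one by one. H1f2 (chr13:23738807-23739531, plus strand), the highest of them, had 131, 211 and 168 FPKM in the G-CSF libraries, against 259 FPKM in control 1 and 372 FPKM in control 2. Every G-CSF value was below both controls, and the log2 fold change was -0.89 ± 0.40 (unadjusted p = 0.0675, adjusted p = 0.418, limma), with -0.63 against control 1 and -1.15 against control 2. H1f5 had 141, 159.9 and 137 FPKM in the G-CSF libraries, against 142 and 64.4 FPKM in controls 1 and 2 (log2 fold change 0.60 ± 0.42, adjusted p = 0.557), so it overlapped control 1 and exceeded control 2. H1f1 had 96.5, 109 and 104 FPKM in the G-CSF libraries, against 107 and 112.5 FPKM in the controls, the narrowest spread among the 4 highest H1 genes. H1f4 had 92.4, 91.1 and 105 FPKM in the G-CSF libraries, against 111 and 59.2 FPKM in controls 1 and 2. None of these 4 genes shared more than 8.54% of its windows with another member that had a matched transcript.

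The linker genes outside the clusters were low. H1f0 had 6.96, 8.26 and 9.11 FPKM in the G-CSF libraries, against 6.07 and 7.30 FPKM in controls 1 and 2, with a log2 fold change of 0.24 ± 0.24 (adjusted p = 0.668). H1f10 had 2.10, 0.761 and 1.32 FPKM in the G-CSF libraries, against 1.15 and 4.74 FPKM in controls 1 and 2, with a log2 fold change of -0.59 ± 0.49 (adjusted p = 0.611). Neither separated the groups. H1f6 and H1f8, linker genes of the male and female germ line, were under 1 FPKM in all libraries and were not tested, and H2ac18 and H2bc27 also failed the filter.

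The summed level of DNA replication genes ranked the libraries as the H2A, H2B and H3 sums did. The 40 S phase genes summed to 280.4, 331 and 281 FPKM in the G-CSF libraries, against 355 and 252 FPKM in controls 1 and 2, which is the order control 1, G-CSF 2, G-CSF 3, G-CSF 1 and control 2 from high to low. Single genes held that full order in 4 of 40 cases, and 30 of 40 were higher in control 1 than in control 2. The part of cell division in the histone values was not tested. Of the 40, 20 had a positive and 20 a negative fold change, the median was 0.00 and 0 passed the adjusted or the unadjusted threshold. E2f2, a transcription factor of S phase entry, had 24.2, 42.5 and 26.0 FPKM in the G-CSF libraries, against 36.8 and 40.8 FPKM in controls 1 and 2 (adjusted p = 0.651). Pold1, the catalytic subunit of DNA polymerase delta, had a log2 fold change of -0.69 ± 0.30 and Gins1, a subunit of the replicative helicase, of 0.74 ± 0.37 (adjusted p = 0.411 and 0.449). The 25 genes of G2 and mitosis summed to 203, 252 and 196 FPKM in the G-CSF libraries. In controls 1 and 2 they summed to 294 and 255 FPKM, so control 2 was not the lowest library here. Of these 25, 15 were positive and 10 negative, and 0 passed the adjusted threshold. At an unadjusted p under 0.05, 2 were lower, namely the spindle motor Kif11 and the kinetochore scaffold Knl1. Kif11 had 6.72, 8.89 and 7.17 FPKM in the G-CSF libraries, against 12.6 and 17.2 FPKM in controls 1 and 2 (adjusted p = 0.319). Mki67, the proliferation marker with the highest level of the list, had 29.4, 35.4 and 28.05 FPKM in the G-CSF libraries, against 39.5 and 101 FPKM in controls 1 and 2 (adjusted p = 0.412).

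The summed level of genes that make and process histone messages was nearly level across the libraries, while several of its genes were not. The 26 in the table, among them Slbp, the transcription factors Npat and Hinfp and the cleavage factors, summed to 203, 207 and 206 FPKM in the G-CSF libraries, against 189.5 and 195 FPKM in the controls. The median of the 25 tested genes was 7.35, 6.58 and 7.61 FPKM in the G-CSF libraries, against 5.78 FPKM in control 1 and 4.13 FPKM in control 2. In 8 of the 25 the controls were at least 2-fold apart, among them Npat, Casp8ap2, Cpsf2, Ncbp1 and Lsm10, which were lower in control 2, and Yy1, which was higher there, at 15.8, 15.8 and 15.3 FPKM in the G-CSF libraries, against 12.4 and 43.96 FPKM in controls 1 and 2. Of 25 tested, 16 were positive and 9 negative with a median of 0.29, 0 passed the adjusted threshold and 1 was higher at an unadjusted p under 0.05. That gene, Lsm10, is a subunit of the U7 particle and had 9.25, 7.31 and 11.3 FPKM in the G-CSF libraries, against 5.70 and 1.53 FPKM in controls 1 and 2 (log2 fold change 1.30 ± 0.46, adjusted p = 0.361). Upf1, a helicase that also acts in histone mRNA decay, had 26.3, 25.7 and 26.8 FPKM in the G-CSF libraries, against 20.0 and 20.5 FPKM in the controls (adjusted p = 0.525), and Cpsf2, a cleavage factor subunit, had a log2 fold change of 0.76 ± 0.42 (adjusted p = 0.480).

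Replacement variants can be made outside S phase from messages with a poly(A) tail. They summed to 380.4, 431 and 397 FPKM in the G-CSF libraries, against 445 and 351 FPKM in controls 1 and 2. This sum ranked the libraries in the same order as the S phase sum. Of 8 tested, 5 were positive and 3 negative with a median of 0.17 and 0 adjusted calls. H3f3b, a gene for H3.3 and the highest, had 103, 112 and 107 FPKM in the G-CSF libraries, against 83.4 and 94.9 FPKM in the controls (adjusted p = 0.696). Macroh2a1, a variant of repressed chromatin, had 26.5, 19.4 and 24.1 FPKM in the G-CSF libraries, against 13.5 and 15.1 FPKM in the controls, and was the 1 gene of the list at an unadjusted p under 0.05 (log2 fold change 0.66 ± 0.26, adjusted p = 0.384). Cenpa, the centromeric H3, had a log2 fold change of -0.40 ± 0.30 (adjusted p = 0.581). Of 27 histone chaperones tested, 18 were positive and 9 negative with a median of 0.12, and 0 passed the adjusted threshold. At an unadjusted p under 0.05, 4 were higher and 1 was lower. Asf1a, a chaperone that hands H3 and H4 to the assembly factors, was the lower one, at 4.22, 4.52 and 4.26 FPKM in the G-CSF libraries, against 6.33 and 12.1 FPKM in controls 1 and 2 (log2 fold change -0.88 ± 0.31, adjusted p = 0.361). Supt6, a chaperone of transcription elongation, had a log2 fold change of 0.66 ± 0.23 (adjusted p = 0.361), and Set, the highest, of 0.35 ± 0.46 (adjusted p = 0.748).

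Markers of other bone marrow cells differed between the libraries that differed in histone levels. The 13 erythroid markers in the table summed to 178, 839.6 and 200 FPKM in the G-CSF libraries, against 1427 FPKM in control 1 and 512 FPKM in control 2, and none was at 0 in all libraries. All 8 that were tested had a negative fold change, with a median of -1.58 and 0 adjusted calls. Hba-a2, an alpha globin, had 43.4, 344 and 53.7 FPKM in the G-CSF libraries, against 589 and 185 FPKM in controls 1 and 2, and the erythropoietin receptor Epor had 0.994, 0.620 and 0.874 FPKM in the G-CSF libraries, against 2.16 and 7.40 FPKM (adjusted p = 0.482 and 0.318). Control 1 and G-CSF 2 had the highest erythroid sums, as they had the highest H2A, H2B and H3 sums. Epor was instead highest in control 2. Control 1 and G-CSF 2 also had the highest sums of neutrophil markers, S phase genes and replacement variants, but not of the other lists. The 14 B lineage markers summed to 70.1, 85.0 and 91.9 FPKM in the G-CSF libraries, against 232 and 122 FPKM in the controls, and all 11 tested were negative with 0 adjusted calls. Cd79a, part of the B cell receptor, was the highest of them, and Pax5, the B cell identity factor, had the smallest p (log2 fold change -1.47 ± 0.23, adjusted p = 0.199). The 12 granulocyte-monocyte progenitor markers summed to 833, 998 and 834 FPKM in the G-CSF libraries, against 562 and 482 FPKM in the controls, but the list was divided, with 7 positive and 5 negative fold changes, 0 adjusted calls and, at an unadjusted p under 0.05, 6 higher genes and 1 lower gene. The granule protease gene Prtn3 had the smallest p (log2 fold change 2.07 ± 0.31, adjusted p = 0.179). The hexokinase gene Hk3, the highest of the list, averaged 107 ± 29.8 FPKM with G-CSF and 196 ± 86.6 FPKM in control (SD, n = 3 and n = 2, log2 fold change -0.83 ± 0.44, adjusted p = 0.461 by limma). The one lower gene at an unadjusted p was Gfi1, a transcription factor of granulocytes (log2 fold change -1.30 ± 0.31, adjusted p = 0.261). Of the 12 neutrophil markers, 8 were positive and 4 negative, with a median log2 fold change of 0.33 that was -1.002 against control 1 and 1.65 against control 2, and all 12 were higher in control 1 than in control 2. The cathelicidin gene Camp was the 1 gene at an unadjusted p under 0.05 and went against most of the list (log2 fold change -2.69 ± 0.70, adjusted p = 0.286), and the granule gene Ngp was the highest (log2 fold change 0.07 ± 0.77). Among monocyte markers, the lipopolysaccharide co-receptor Cd14 had a log2 fold change of 3.79 ± 0.50 (adjusted p = 0.162), and an adjusted p of 0.0438 when only protein-coding genes were fitted. The part of these cells in the histone values was not tested.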

How the data were processed

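RNA of bone marrow monocytes was measured in 5 bulk libraries (3 G-CSF, 2 control). The authors deposited FPKM per gene for all 5; the submitters' processing notes name the mm10 build and Cell Ranger 5.0.1, a single-cell tool. The bulk library preparation, aligner, counter and annotation are not given in the sources used here. Genes with at least 1 FPKM in at least 2 libraries entered limma 3.58.1 (R 4.3.3, trend, 3 residual degrees of freedom) on log2(FPKM + 1), two-sided, with Benjamini-Hochberg adjustment over all tested genes. Fold changes are on the log2(FPKM + 1) scale, which understates the change of low genes. The fit was tested on simulated data. FPKM times the GENCODE M21 model length gave whole reads, within 0.002 of a read step, in 94.3% of 30425 matched rows; older symbols were matched through RefSeq, which held 65 of 69 members. Recovered reads cover counting only and served the depths and a voom alternative scaled by median ratios. Libraries of a group differed by far more than sampling noise (chi-square over degrees of freedom 7.11 to 100.2), so none was counted as a repeat.

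Named members were, per class, the 4 with the highest mean FPKM and the 3 with the smallest limma p, any with an adjusted p under 0.05, and H1f0 and H1f10; from each companion list the highest gene and up to 3 of smallest p were named. The remaining genes named with values here, and the division of the H4 genes, were chosen after their values were seen. The members and lists were chosen with earlier results of these data known, so no list-level p is given. Alternatives covered pseudocount, filter, scaling, trend, gene set, recovered reads, replicate block and leaving out each library. Figures were drawn with Python and matplotlib.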

Additional observations from a re-analysis of the deposited data

How the results depend on the processing

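No setting that kept all 5 libraries called a member at an adjusted p under 0.05, and leaving out control 1 was the one setting that did, with 3 members called higher and 3 lower, against 0 and 0 without any other library. At an unadjusted p under 0.05 the 1 higher member became 2 with no filter on low values and 0 after scaling to the protein-coding total, after quantile normalisation, with voom on recovered reads, with the replicate block, and with protein-coding genes only and control 2 left out. Members lower at that level numbered 0 in the reported fit, 2 with no filter, 2 after quantile normalisation, 1 without the variance trend and 2 with voom. Over the libraries left out in turn, members higher at an unadjusted p ran from 0 to 15 and members lower from 0 to 12, the upper values without control 1.

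The class medians of the log2 fold change depended on which control was kept. Over the libraries left out in turn they ran from -0.12 to 0.04 for H1, -0.73 to 0.67 for H2A, -0.61 to 1.01 for H2B, -0.56 to 0.59 for H3, -0.99 to 0.42 for H4 and -0.54 to 0.52 for all members. With protein-coding genes only and control 2 left out they were -0.61 for H2B, -0.56 for H3, 0.42 for H4 and -0.54 for all members. How far the other scalings, pseudocounts and filters moved the class medians is not given here. The median over all tested genes ran from -0.09 with no filter to 0.22 with a minimum of 5 FPKM.

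Single genes changed sign in several settings. Of the named genes, 17 changed sign without control 2, 7 without control 1 and 7 without G-CSF 2. Without G-CSF 1 there were 2, and without G-CSF 3 there were 3. Without G-CSF 2 the gene farthest below 0 among those 7 was H3c10, at -0.21. Quantile normalisation gave log2 fold changes of -0.0042 for H1f4, -0.13 for H2ac12, -0.019 for H2bc3, -0.090 for H3c10, -0.078 for H3c11, -0.046 for H3c8, 0.13 for H4c2, 0.17 for H4c1, -0.014 for H3f3b and -0.38 for Ngp. Voom gave -0.015 for H2ac12, -0.037 for H3c10, -0.051 for H3c11 and -0.0062 for H3c8. Over the libraries left out in turn the log2 fold change ran from -0.21 to 0.69 for H1f4, -1.30 to 0.12 for H1f10, -0.74 to 0.86 for H2ac12, -0.89 to 0.88 for H2ac13, -0.84 to 0.42 for H2ac4, -0.46 to 1.22 for H2bc11, -0.68 to 0.94 for H2bc12, -0.61 to 1.10 for H2bc15, -0.69 to 0.95 for H2bc3 and -0.035 to 1.20 for H2bc9. It ran from -0.56 to 0.70 for H3c10, -0.67 to 0.043 for H3c13, -0.67 to 0.62 for H3c2, -0.55 to 0.67 for H3c11, -0.62 to 0.90 for H3c8 and -0.83 to 0.59 for H3c3. For H4 it ran from -0.89 to 0.53 in H4c12, -0.99 to 0.49 in H4c8, -1.04 to 0.71 in H4c2, -0.997 to 0.65 in H4c1 and -0.999 to 0.41 in H4c16. For genes of the lists it ran from -0.27 to 0.98 in Set, -1.34 to 2.38 in Rn7sk and -1.002 to 1.14 in Ngp. With protein-coding genes only, leaving out control 2 gave the same values as leaving it out among all genes. The causes were not tested.

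The deviations of same-numbered libraries from their group means had a correlation of -0.07 for number 1 and -0.23 for number 2. The 2 controls deviate from their mean as mirror images, so these correlations cannot settle whether the numbers mark pairs. The labels' numbers were not taken as pairs. With the replicate block the counts of called members stayed at 0 and the median over all members was 0.02. In that fit 3 genes turned positive, H2ac13 at 0.048, H3c2 at 0.11 and H3c3 at 0.014. G-CSF 3 has no control of its number, so it did not enter these fold changes. They equal those without G-CSF 3 and are not a separate check, and the block left 1 residual degree of freedom. Depth limits control 2 most. The voom fit held the 60 tested members with a known model length, and no limit was set on their number of reads.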
